A study of Mus musculus with 4 samples.

Results

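Layer 4 Rorb excitatory neurons of the mouse cerebral cortex were examined in single-nucleus RNA-seq libraries from GCLC-KO mice. Members were chosen nucleus by nucleus from marker transcripts. A nucleus was taken when it held at least 1 unique molecular identifier (UMI, 1 counted RNA molecule) of Slc17a7, the vesicular glutamate transporter of cortical excitatory neurons, none of Gad1, Gad2 or Syt6, and at least 5 of Rorb. At least 1 of Rspo1, Scnn1a and Whrn also had to be detected, and no more than 2 of 7 genes that served to leave out layer 2/3 neurons (Otof, Ccbe1, Stard8, Glis3, Fst, Nectin3 and Clec18a). These rules gave 1224 nuclei out of 30515 that passed limits of 7000 detected genes and 1% mitochondrial UMIs, and out of 14291 excitatory nuclei (Slc17a7 detected, no Gad1 or Gad2). The deposited libraries held 30784 nuclei before that filter.

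The 4 libraries came from 4 GCLC-KO mice, 2 aged 3 months and 2 aged 6 months, named 3M-1 and 3M-2 at the younger age and 6M-1 and 6M-2 at the older one, and every series of 4 values below follows that order. GCLC-KO mice carried a floxed allele of Gclc, the catalytic subunit of the enzyme that starts glutathione synthesis, from the strain C57BL/6NTac-Gclctm1a(EUCOMM)Wtsi/WtsiCnbc, and CaMKII-Cre, which drives recombination in forebrain excitatory neurons. No wild-type library was part of the data analysed here, so every group shared the knockout, and only age could be compared. Nuclei stained with DAPI were sorted from cortical regions that had been picked for abundant rod-shaped microglia, and 10x Genomics 3' libraries were made. The kit was v3.1 per the sample labels and version 3 per the published methods. The sample titles gave the age and a replicate number (1 or 2) for each mouse, and the batch number used here equals that replicate number.

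Layer 4 is the main input layer of sensory cortex. Its excitatory neurons receive axons from the sensory thalamus and pass the signal mostly to the layers above. Rorb, a nuclear receptor of the ROR family, is needed for these cells to gather into the whisker barrels of somatosensory cortex, and its transcript is also found in part of the layer 5 intratelencephalic neurons, which project within the telencephalon.

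The rule gave 247, 329, 367 and 281 members, with median depths of 12394, 9709, 10199 and 11673 UMIs and 3878, 3483, 3522 and 3775 detected genes per nucleus. Summed over members, the libraries held 3265460, 3612175, 4444419 and 3730769 UMIs, and levels below are UMIs per 1000000 UMIs (CPM) of those sums, one value per mouse. Because 3' counts of nuclear RNA can differ with gene length and internal priming, levels were compared between nuclei and not between genes. Xist, a transcript of the inactive X chromosome, was at 1941, 1788, 1835 and 1967 CPM, and the Y-linked Kdm5d and Eif2s3y were at 0 in all 4 libraries. The Y-linked Ddx3y and Uty each had counts in at least 1 library. The sum of the 5 sex-linked genes was 1788.95 CPM in 3M-2 and 1835.79 in 6M-1, against 1788.4 and 1835.34 for Xist alone. No barcode of a layer 4 member was shared with a layer 4 member of another library, although pairs of libraries shared 12 to 19 barcodes overall.

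The 4 genes that defined the gate were read first, as a description of the choice. Rorb (ENSMUSG00000036192, chromosome 19, 18930605 to 19111196 on GRCm38) was at 857, 994, 1152 and 867 CPM in layer 4 nuclei, against a mean of 85.1 in the 13067 other excitatory nuclei. Whrn (chromosome 4, 63414910 to 63495991), which encodes the scaffold protein whirlin, was at 143, 132, 164 and 154 CPM against 13.9. Rspo1 (chromosome 4, 124986430 to 125009099), a secreted amplifier of Wnt signalling, was at 61.9, 45.1, 29.5 and 36.7 CPM against 5.06. The level of Rspo1 was higher in both 3-month mice than in both 6-month mice. Scnn1a (chromosome 6, 125320659 to 125344943), a subunit of the epithelial sodium channel and the source of a widely used layer 4 Cre line, was sparse at 4.29, 3.88, 3.38 and 3.75 CPM against 1.10.

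**Figure D1:**
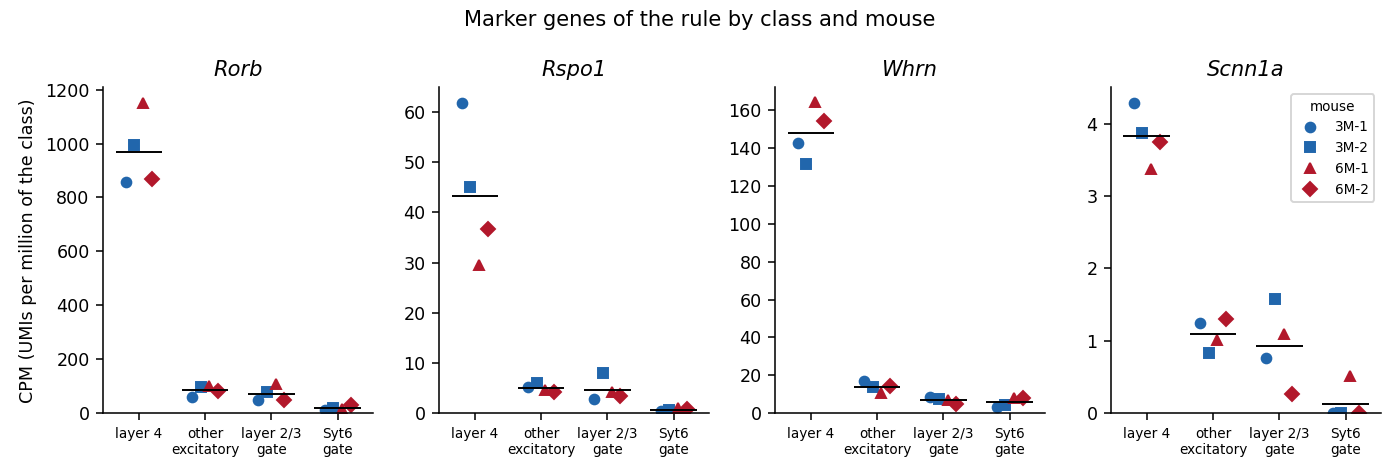
Levels (CPM, linear axes, 1 point per mouse, bars at the mean of 4 mice) of Rorb, Rspo1, Whrn and Scnn1a in layer 4, other excitatory, layer 2/3 and Syt6 nuclei, the last 2 gates being defined further on. Rorb lay between 857 and 1152 CPM in layer 4 nuclei and averaged 85.1 CPM in other excitatory nuclei.

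Most members had entered through Whrn. Whrn was detected in 1055 members (86.2%) and was the single detected marker in 779 (63.6%). Rspo1 was detected in 404 (33.0%) and was the single marker in 161 (13.2%), both Rspo1 and Whrn without Scnn1a were found in 231 (18.9%), and Scnn1a was found in 53 (4.33%). The share with Rspo1 was 41.7, 34.3, 27.5 and 31.0% in the 4 mice, higher in both 3-month mice than in both 6-month mice. In oligodendrocyte nuclei (Mog and Mag detected, no Slc17a7, Gad1 or Gad2), a class that should lack these genes, Rspo1 was detected in 0.330%, Whrn in 1.98%, Scnn1a in 0.132% and at least 5 Rorb UMIs in 0.165% of 3026 nuclei, at a median depth of 2378.5 UMIs against 10837.5 in layer 4 nuclei. In the other excitatory nuclei, at a median of 9868 UMIs, the shares were 4.03% for Rspo1, 10.2% for Whrn, 0.972% for Scnn1a and 5.99% for Rorb.

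The median member had 10, 10, 12 and 10 Rorb UMIs in the 4 mice, with a range of 5 to 62, and 112 members had exactly 5. Those 112 nuclei just inside the threshold had Il1rapl2, a layer 5 intratelencephalic marker, at 609 CPM and Whrn at 172 CPM, and the 135 nuclei with 4 Rorb UMIs that met every other rule had 496 and 144 CPM. On the exclusion genes, the 167 members with 2 detected had Rorb at 941 CPM and Otof at 5.72 CPM, and the 38 nuclei with 3 had 714 and 14.8 CPM. A further 643 nuclei had at least 5 Rorb UMIs and met every other rule, but had none of the 3 markers. These 643 nuclei had Il1rapl2 at 1522 CPM, Etv1 at 130 CPM, Deptor at 120 CPM and Cux2 at 109 CPM.

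The label was then checked against markers of neighbouring classes. The members did not form 1 uniform class. The 404 members with Rspo1 held Cux2, an upper-layer homeobox gene, at 349 ± 43.3 CPM (SD, n = 4 mice), against 197 ± 33.9 CPM in the 813 members with Whrn and no Rspo1. Il1rapl2 was at 138, 76.8, 183 and 294 CPM in the members with Rspo1 and at 719.7, 856, 727 and 845 CPM in the members with Whrn and no Rspo1, with no overlap between the ranges. Deptor, an mTOR-binding protein, averaged 19.1 against 60.2 CPM, and Etv1, a transcription factor of layer 5 neurons, averaged 20.6 against 57.7 CPM, so that markers of layer 5 intratelencephalic neurons stood higher in the members with Whrn and no Rspo1. Rorb itself averaged 1102 and 906 CPM. In the other excitatory nuclei, Il1rapl2 averaged 476, Deptor 40.6 and Etv1 76.1 CPM. Over the whole gate, 0 of the 5 layer 5 intratelencephalic markers were higher than there in all 4 mice, and 3 were lower (median log2 ratio −0.73). Over all 11169 genes of at least 5 CPM, 1827 were higher and 3894 lower. In the 53 members with Scnn1a, Il1rapl2 was at 956 ± 571 CPM and Cux2 at 260 CPM, with a wide spread between mice.

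This split was made after the values had been seen and uses genes of the gate, so it is given with no test. Among 5823 genes of at least 20 CPM in the higher subset in every mouse, 3 (0.0515%) were at least 2-fold higher in all 4 mice in members with Rspo1 and 21 (0.361%) were at least 2-fold lower. Among the highest in members with Rspo1 were Adam33, a membrane metalloprotease (141 against 44.4 CPM, mean log2 ratio 1.70 ± 0.25), Cbln4, a secreted synapse organiser (24.5 against 9.07 CPM), Stxbp6, a SNARE-binding protein (146 against 60.9 CPM), and Sema6d, a transmembrane semaphorin (234 against 98.6 CPM). Among the lowest, besides Il1rapl2 given above, were Iqgap2, a cytoskeletal scaffold (11.6 against 71.2 CPM, mean log2 ratio −2.75 ± 0.96), Cpne7, a calcium-dependent membrane-binding protein (18.0 against 76.1 CPM), Pcdh19, a protocadherin (6.15 against 27.2 CPM), and Kcnn3, an SK-type potassium channel (7.69 against 42.7 CPM). The label therefore held in part, and layer 4 nuclei below is the name of the gate as a whole.

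**Figure D2:**
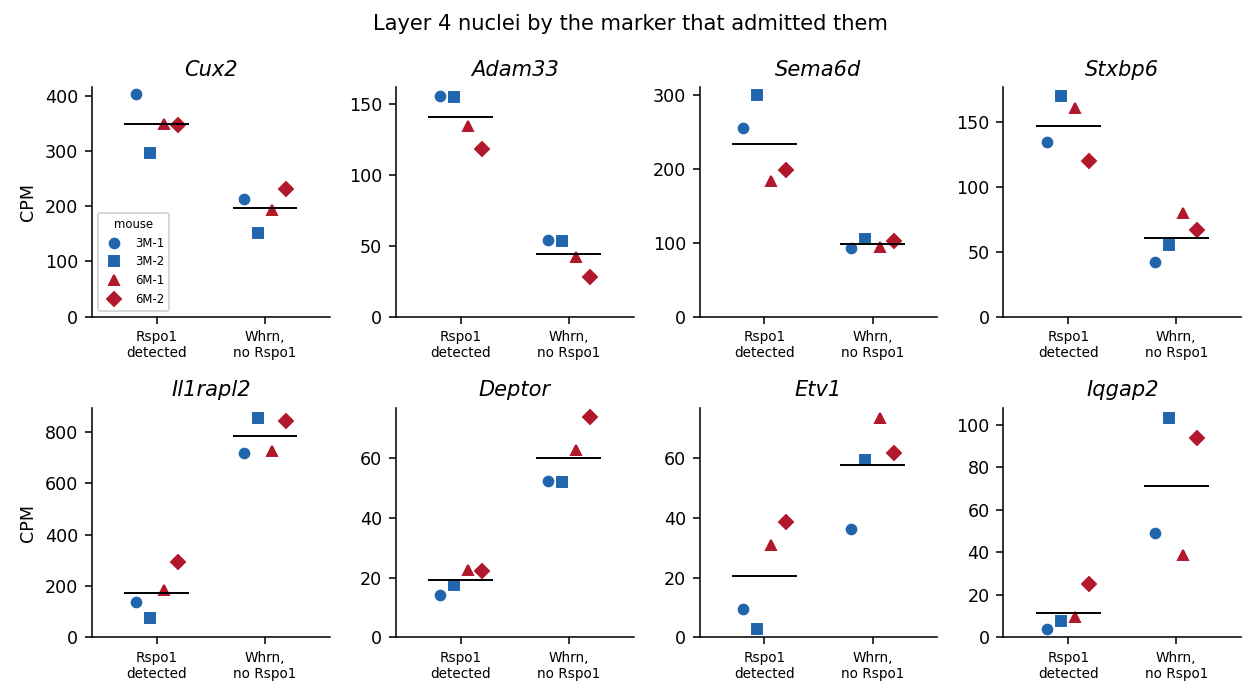
Levels (CPM, linear axes, 1 point per mouse, bars at the mean of 4 mice) of 8 genes in members with Rspo1 and in members with Whrn and no Rspo1. Il1rapl2 was below 300 CPM in every mouse in the first subset and above 700 CPM in every mouse in the second.

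Genes outside the rule were next compared between layer 4 nuclei and the other excitatory nuclei of the same mouse. Because the rule separated these same nuclei, the values describe the class and carry no test. Of 6362 genes with at least 20 CPM in the higher class in every mouse, 93 (1.46%) were at least 2-fold higher in layer 4 in all 4 mice and 155 (2.44%) at least 2-fold lower.

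Of the leading protein-coding genes, 3 encode channels or a receptor. Kcnh5, the voltage-gated potassium channel Eag2, was at 377, 385, 508 and 404 CPM in layer 4 nuclei against a mean of 88.7 in other excitatory nuclei, a mean log2 ratio of 2.24 ± 0.30 (SD over 4 mice). Scn7a, an atypical sodium channel, was at 31.8, 37.7, 40.7 and 30.3 CPM against 5.64, a ratio of 2.69 ± 0.33. Grik1, the kainate receptor subunit GluK1, was at 399, 272, 381 and 411 CPM against 80.0, a ratio of 2.18 ± 0.39. All 3 genes were at least 2-fold higher in layer 4 on average, and Scn7a was lower in the members with Rspo1 (14.4 CPM) than in those with Whrn and no Rspo1 (44.6 CPM).

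The other protein-coding leaders were Thsd7a, Col26a1, Lama4 and Plcxd2. Thsd7a, a thrombospondin-repeat membrane protein (chromosome 6, 12311610 to 12749410), was at 439, 527, 448 and 544 CPM against 87.7, a log2 ratio of 2.49 ± 0.36. Col26a1, a collagen, was at 189, 163, 164 and 186 CPM against 30.2, a ratio of 2.55 ± 0.29. Lama4, the laminin alpha-4 chain, was at 24.2, 24.1, 125 and 58.7 CPM against 11.9, a ratio of 2.09 ± 0.48. The Lama4 level was uneven, with 6M-1 far above either 3-month mouse. Plcxd2, a phospholipase-domain protein, averaged 83.1 against 17.6 CPM. The remaining leaders were transcripts with little known function, namely Gm20752 (log2 ratio 3.14 ± 0.22), 1700047F07Rik (2.81 ± 0.30), Gm29674 (2.61 ± 0.31), BC006965 (2.60 ± 0.18) and Gm44129 (2.46 ± 0.69). Gm44129 lies antisense to Thsd7a, and whether the counting used the strand is not given in the sources used here, so reads of this pair could not be told apart.

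The 8 lowest genes held 4 that code for proteins. Sema3e, a secreted semaphorin of deep-layer neurons, was at 5.21, 9.14, 4.73 and 15.0 CPM against 84.7, a log2 ratio of -3.42 ± 0.51. Thsd7b, the relative of Thsd7a, was at 22.7, 19.4, 24.3 and 17.4 CPM against 243, a ratio of -3.50 ± 0.53, opposite in sign to Thsd7a. Col6a1, a collagen VI chain, averaged 2.42 against 32.2 CPM. Pkp2, a desmosome protein, had a ratio of -3.59 ± 0.52. The other transcripts were Gm10754 (-4.15 ± 0.32), 9530026P05Rik (-3.41 ± 0.51), Gm4128 (-3.92 ± 0.74), which overlaps Sema3e on the opposite strand, and Gm15261 (-3.79 ± 0.62), which overlaps Arhgap6 on the opposite strand. These ratios depended on the reference class. Against layer 2/3 nuclei alone the ratio of Thsd7b was −0.70, of Sema3e −0.998 and of Gm4128 −1.39, and against Syt6 nuclei alone that of Gm15261 was −0.17 and of 9530026P05Rik −0.30. Col6a1 (−3.38 and −4.98) and Pkp2 (−3.86 and −2.60) were lower in layer 4 than in each of these gates.

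**Figure D3:**
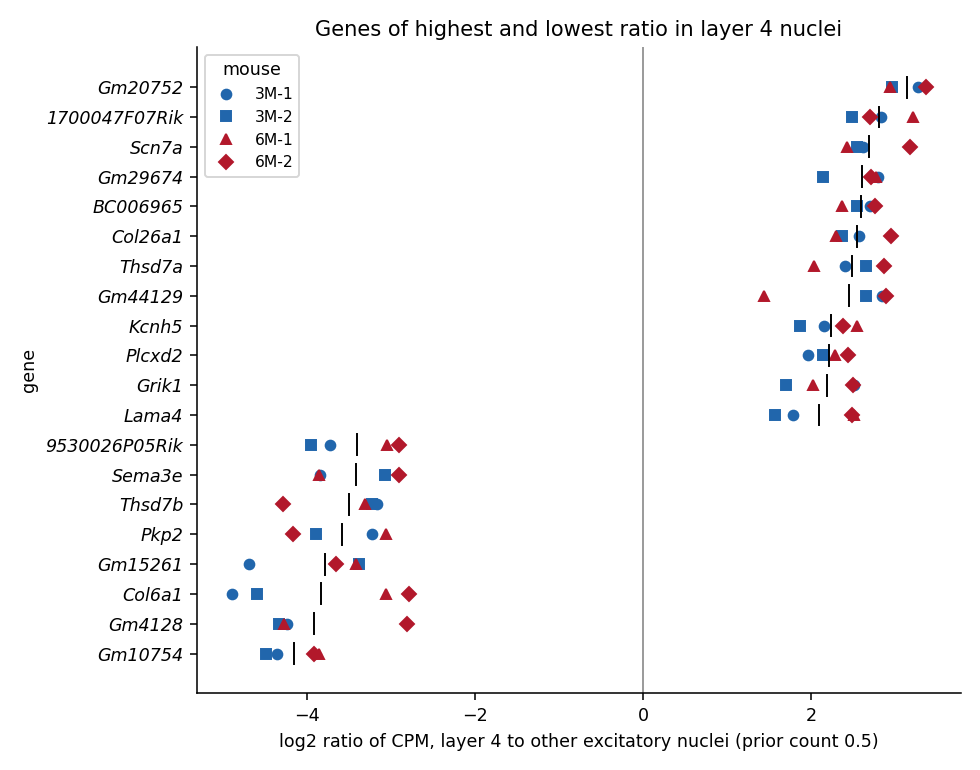
Log2 ratio of CPM in layer 4 nuclei to CPM in other excitatory nuclei (1 point per mouse, bars at the mean) for the 12 leading and 8 lowest genes outside the gate. The mean ratios ran from 3.14 for Gm20752 to −4.15 for Gm10754.

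The leaders changed with the class used for comparison, and their ratios also with the members taken. Over the alternatives, log2 ratios ran from 1.26 to 5.31 for Gm44129, from 1.52 to 5.34 for Thsd7a and from 1.68 to 5.46 for BC006965. That of Scn7a fell to 0.98, a value not from a change of comparison class. Its mean was 35.1 CPM in layer 4 against 6.44 CPM in layer 2/3 nuclei. Every leader named above stayed higher in layer 4 than in the reference. Against 1578 layer 2/3 nuclei (no Syt6, at least 3 of the 7 exclusion genes), 133 of 6175 genes (2.15%) were at least 2-fold higher in layer 4 in all 4 mice and 167 (2.7%) lower, led by Col8a1 (mean log2 ratio 3.98), 1700047F07Rik (3.92) and Ptprm (3.85), a receptor tyrosine phosphatase. Against 686 Syt6 nuclei (at least 2 Syt6 UMIs and Foxp2 detected, a corticothalamic gate of layer 6), 280 of 6209 genes (4.51%) were higher and 267 (4.3%) lower. 1700047F07Rik was at 2.61, 1.19, 0 and 0 CPM in Syt6 nuclei and Scn7a at 1.12, 0, 0.510 and 0.925 CPM, so no ratio is given for them, and Thsd7a was at 8.95, 10.1, 10.2 and 20.8 CPM, a mean log2 ratio of 5.34.

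Gene groups were then read in the same way, counting members of at least 5 CPM in layer 4 that were higher, or lower, than other excitatory nuclei in all 4 mice. Over all 11169 such genes, 1827 were higher in 4 mice and 3894 lower, with a median log2 ratio of −0.090. Genes named in this account beyond the 3 most abundant members of each list were chosen after their values had been seen.

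Among 21 cortical transcription factors, 11 were higher in layer 4 in all 4 mice and 7 lower (median 0.23). Rorb is among the 21 and among the 11, and its direction was set by the rule. Rora, the paralogue of Rorb, was at 2120.4, 2326, 2969 and 2612 CPM against 995, a log2 ratio of 1.33 ± 0.11. Mef2c, an activity-regulated factor of excitatory neurons, was at 1224, 1443, 1571 and 1217 CPM against 837 (0.70 ± 0.12). Cux2 (1.09 ± 0.50) and Cux1 (0.96 ± 0.41), homeobox genes of the upper layers, were also higher. Cux2 was, however, lower than in layer 2/3 nuclei in every mouse (means of 244 and 293 CPM). Factors of corticofugal neurons were lower than in this mixed reference, which holds Syt6 nuclei that the rule leaves out of layer 4, with Bcl11b at 13.2, 8.31, 15.8 and 24.4 CPM against 129, Foxp2 at 10.4, 8.58, 18.7 and 16.9 CPM against 116, and Fezf2 at a ratio of -1.41 ± 0.31. Against layer 2/3 nuclei the ratio was −1.78 for Bcl11b, but 0.89 for Foxp2 (means of 13.6 and 7.16 CPM) and 1.33 for Fezf2.

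Of 9 AMPA and NMDA receptor subunits, 2 were higher and 6 lower (median −0.27), and the AMPA receptor subunits differed in sign. Gria4 was at 1414, 1348, 1728 and 1599.9 CPM in layer 4 against 713, a ratio of 1.09 ± 0.07. Gria3 was at 283, 344, 301 and 325 CPM against 1007, a ratio of -1.69 ± 0.20. Gria1 was at 407, 443, 252 and 450.3 CPM against 911 (-1.26 ± 0.34). Among the NMDA receptor subunits, the ratio was 0.037 ± 0.10 for Grin2a and -0.17 ± 0.041 for Grin2b. Of 11 GABA-A receptor subunits, 4 were higher and 6 lower (median −0.29), with Gabra5, the extrasynaptic alpha subunit, at -1.29 ± 0.28

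Of 26 voltage-gated potassium channel genes and subunits, 12 were higher and 10 lower (median 0.11). Besides Kcnh5, Kcnh7 was at 2058, 1906, 2276 and 2044 CPM against 1394 (0.58 ± 0.13), Kcnma1, the BK channel, was at a ratio of 0.27 ± 0.033, and Kcnip4, a Kv4-interacting protein, was at 0.13 ± 0.11. Kcnn2, an SK channel, was lower at 91.6, 146, 108 and 141 CPM against 275. Of 17 sodium and calcium channel genes, 9 were higher and 3 lower (median 0.16). Cacna2d3, an auxiliary calcium channel subunit, was at 1359, 1471, 1295 and 1473 CPM against 592, with a nearly constant ratio over the mice (1.24 ± 0.015). Cacnb4 (0.70 ± 0.14) and Cacna1a (0.27 ± 0.03) were also higher.

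Of 22 presynaptic and synaptic adhesion genes, 14 were higher and 4 lower (median 0.16), including Ptprd, a receptor phosphatase that organises synapses (0.87 ± 0.11), Nlgn1 (0.37 ± 0.091) and Cbln4 (1.96 ± 0.29). Of 27 guidance genes, 10 were higher and 12 lower (median −0.075). Plxnd1, the receptor of Sema3e, was at 63.7, 81.9, 65.7 and 61.9 CPM against 22.4, a ratio of 1.62 ± 0.16, opposite in sign to its ligand. Unc5d, a netrin receptor, was at 1403, 1098, 1665 and 1265 CPM against 605 (1.17 ± 0.27), Dcc was at 0.31 ± 0.19, Ntn4 was at 1.94 ± 0.20, and Nrp1, a semaphorin co-receptor, was lower at 15.0, 18.0, 16.0 and 30.3 CPM against 141. Of 18 cadherins, 5 were higher and 11 lower (median −0.24), with Cdh12 at 1.32 ± 0.095, Cdh6 at 1.43 ± 0.20, Cdh9 at -3.25 ± 0.77, Cdh18 at -2.81 ± 0.22 and Pcdh9 at -0.041 ± 0.019.

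Of 18 activity genes, 9 were higher and 2 lower (median 0.24). Egr1, an immediate-early transcription factor, was at 44.1, 75.0, 68.0 and 82.8 CPM against 34.2 (1.01 ± 0.17), Homer1 was at 0.59 ± 0.17, Nr4a1 at 0.68 ± 0.19 and Nr4a2 at -1.31 ± 0.59. Of 7 CaM kinase genes, 5 were higher and none was lower (median 0.11), with Camk4 at 0.85 ± 0.12 and Camk2a, whose promoter drives the Cre, at 891, 835, 681 and 775 CPM against 736 (0.11 ± 0.017). Of 20 cholesterol synthesis genes, 8 were higher and none was lower (median 0.21), among them Srebf2, the master regulator (0.45 ± 0.081). Of 24 nuclear-encoded oxidative phosphorylation genes, none was higher and 9 were lower (median −0.13), for example Atp5a1 at -0.26 ± 0.10.

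The knockout genotype concerns glutathione, and genes of that pathway were read in the layer 4 nuclei. Gclc (chromosome 9, 77754535 to 77794485) was at 42.6, 36.8, 27.7 and 33.8 CPM in layer 4 and at 42.3, 33.1, 35.3 and 36.6 CPM in other excitatory nuclei. The ranges of the classes overlapped, and 3' counts do not check the deletion of an internal exon. Of 7 genes of glutathione synthesis and cystine supply, 1 was higher in layer 4 in all 4 mice and 2 lower (median −0.071), with Ggt7, a gamma-glutamyltransferase relative, at 0.19 ± 0.11 and Slc1a1, a neuronal glutamate and cysteine transporter, at 69.8, 70.9, 55.1 and 76.1 CPM against 106 (-0.65 ± 0.19). Of 17 glutathione and thioredoxin antioxidant genes, 2 were higher and 8 lower (median −0.14), with Sod2, the mitochondrial superoxide dismutase, at -0.18 ± 0.12. Of 8 genes of the Nrf2 group, 1 was higher and 4 lower (median −0.11), with Sqstm1 at 0.016 ± 0.083 and Gclm, the modifier subunit partner of Gclc, at -0.023 ± 0.19. Of 11 genes of iron handling and ferroptosis, 1 was higher and 6 lower (median −0.22), and the higher one was Acsl4, a lipid-activating enzyme (0.32 ± 0.11).

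Age played no part in the rule, but the share of nuclei that met it depends on the rule's own counts. Layer 4 nuclei were 7.67, 7.22, 11.2 and 8.72% of excitatory nuclei, with Wilson 95% intervals of 6.80 to 8.64, 6.51 to 8.01, 10.1 to 12.3 and 7.79 to 9.74 that cover counting error only. Both 6-month shares were above both 3-month shares, with means of 9.93 and 7.45% and a difference of 2.49 percentage points. The difference was 1.27 points without 6M-1 and ran up to 3.71 points without 6M-2. By replicate number, the share was 7.67% at 3 months and 11.2% at 6 months for number 1, and 7.22 and 8.72% for number 2. An exact two-sided permutation test over the 4 mice gave p = 0.333, the smallest value that 2 against 2 mice allow, so this design could not reach 0.05. The rule counts UMIs and is sensitive to depth. After each nucleus was thinned to 5000 UMIs, the shares were 2.78, 3.35, 5.60 and 3.00%, the ages overlapped, and the difference was 1.23 points (exact permutation p = 0.667), with 4.76% of layer 4 nuclei at 3 months and 2.48% at 6 months left out as shallower. With at least 2 of the 3 markers required, the difference was 0.239 points (exact permutation p = 1). Other gates gave 1.93 points with at least 10 Rorb UMIs, 2.21 with no exclusion gene and 2.74 without possible doublets. As a share of all nuclei past the filter, the difference was 0.617 points. In the last 4 settings both 6-month shares were above both 3-month shares. Layer 2/3 nuclei were 13.3, 13.2, 9.33 and 7.41% of excitatory nuclei and Syt6 nuclei 6.15, 3.42, 5.10 and 5.09%. Since these are shares of 1 total, fewer nuclei of one class and more of another cannot be told apart.

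Expression was compared between ages with sums of counts per mouse. Of 13103 genes tested in layer 4 nuclei, edgeR's quasi-likelihood F test (p-values adjusted by Benjamini-Hochberg) called 0 higher (0.0%) and 0 lower (0.0%) at an adjusted p under 0.05. At an unadjusted p under 0.05, 588 (4.49%) were higher and 363 (2.77%) lower at 6 months. DESeq2 called 11 (0.084%) higher and 3 (0.0229%) lower. Both 6-month values were above both 3-month values in 2349 genes (17.9%) and below them in 2403 (18.3%). The number of calls rested on single mice, because the edgeR test called 113 higher and 63 lower without 6M-2, 12 and 2 without 6M-1, 2 and 0 without 3M-2, and 0 and 0 without 3M-1, with the lone mouse of an age assumed to vary like the other pair.

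No gene passed in layer 4, and the 5 of smallest p in each direction are given as values. Neat1, a nuclear long non-coding RNA (chromosome 19, 5824708 to 5845478), was at 13.2, 8.86, 41.4 and 39.4 CPM, a log2 difference of 1.89 (SE 0.25) with an edgeR adjusted p of 0.213. Apoe, a lipid carrier made mostly by glia (chromosome 7, 19696109 to 19699188), was at 18.1, 18.8, 43.4 and 62.5 CPM (1.52 (SE 0.23), edgeR adjusted p = 0.213). For both genes the 6-month values were above the 3-month values by more than the spread within an age. Zfpm2, a cofactor of GATA factors (chromosome 15, 40655035 to 41104592), was at 34.0, 35.4, 81.2 and 76.7 CPM (1.19 (SE 0.18)), Zbtb20, a zinc finger repressor (chromosome 16, 42875881 to 43642602), was at 44.7, 46.2, 109.8 and 93.0 CPM (1.17 (SE 0.18)), and Lama4 (chromosome 10, 38965515 to 39110188) was at 24.2, 24.1, 125 and 58.7 CPM (1.94 (SE 0.32)). Their edgeR adjusted p-values were also 0.213. Lama4 was the least even of the 5, with 6M-1 at 125 and 6M-2 at 58.7 CPM.

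Lower at 6 months, again without passing, were 5 genes. Zrsr1, an imprinted splicing factor gene (chromosome 11, 22972005 to 22976496) that lies within Commd1 on the opposite strand, was at 24.8, 26.6, 8.33 and 9.11 CPM (-1.55 (SE 0.25), edgeR adjusted p = 0.213). Igsf3, an immunoglobulin-superfamily membrane protein (chromosome 3, 101377083 to 101463059), was at 26.0, 18.5, 4.95 and 7.51 CPM (-1.84 (SE 0.32)). Sorcs3, a sortilin-family receptor at excitatory synapses (chromosome 19, 48206025 to 48805505), was at 224, 302, 96.3 and 137 CPM (-1.17 (SE 0.21)). In all 3 genes both 6-month values were below both 3-month values. Ppp1r1a, inhibitor 1 of protein phosphatase 1, was at 75.9, 59.2, 33.1 and 32.7 CPM (-1.03 (SE 0.20), edgeR adjusted p = 0.241), and Acvr1c, the receptor ALK7, was at 19.0, 29.6, 9.45 and 8.58 CPM (-1.42 (SE 0.29)). DESeq2 called Neat1, Zfpm2, Apoe, Zbtb20 and Lama4 of the first 5 and Igsf3 and Sorcs3 of the second. Its other calls were St18, Ptgds and Sox2ot, which are known from glia, Erbb4 and Nxph1, which are known from inhibitory neurons, and Gm47423, all higher, and Maml3, a Notch coactivator, lower.

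The sizes of these differences depended on the members taken. Over the alternatives, the log2 difference ran from 0.75 to 2.43 for Neat1, from 0.50 to 1.74 for Zfpm2, from 1.01 to 1.82 for Apoe, from 0.54 to 1.42 for Zbtb20 and from 1.28 to 2.38 for Lama4. With at least 2 of the 3 gate markers required it was 0.50 for Zfpm2 and 0.61 for Zbtb20, and in members with Rspo1 alone it was 0.97 for Zfpm2 and 0.54 for Zbtb20. For the lower genes it ran from −2.26 to −1.19 for Zrsr1, from −2.15 to −1.23 for Igsf3, from −1.44 to −0.84 for Sorcs3, from −1.22 to −0.81 for Ppp1r1a and from −1.92 to −1.09 for Acvr1c. Among the other DESeq2 calls, it ran from 0.36 to 2.38 for St18 and from 0.59 to 2.32 for Erbb4.

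**Figure D4:**
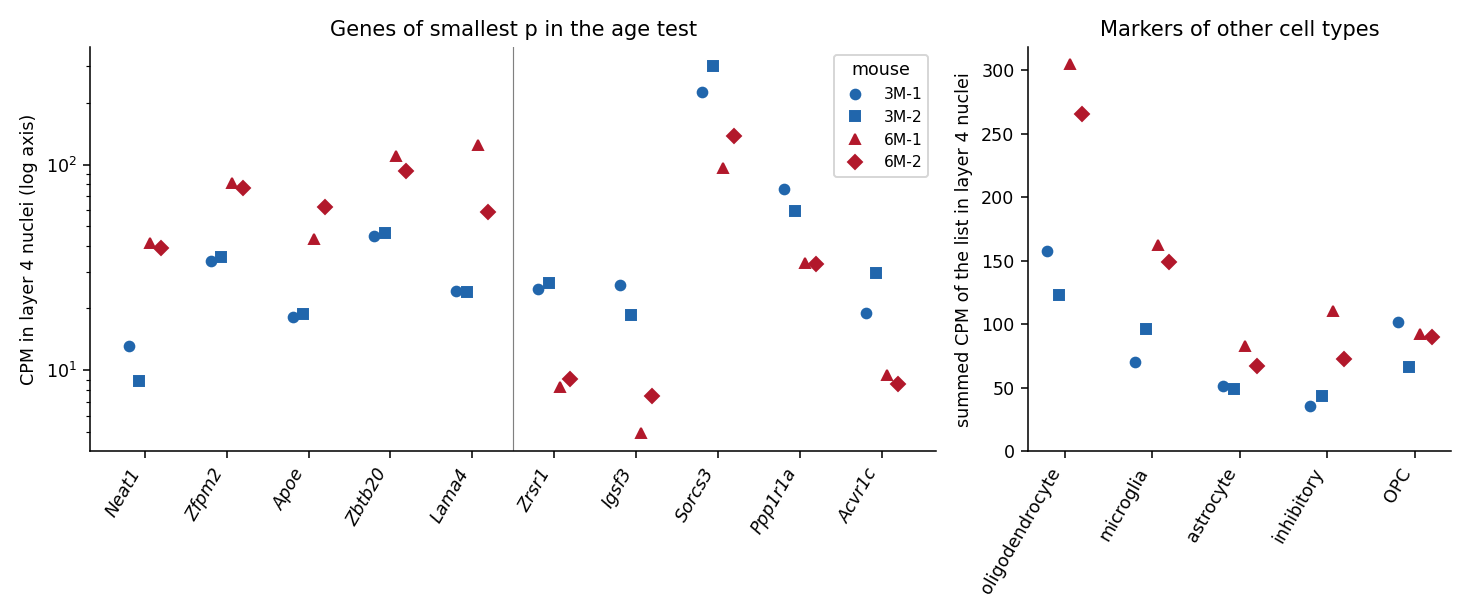
Left, levels in layer 4 nuclei (CPM, logarithmic axis, 1 point per mouse) of the 5 genes of smallest p in each direction, and right, summed CPM of marker lists of other cell types in the same nuclei (linear axis). Neat1 was at 13.2 and 8.86 CPM at 3 months and at 41.4 and 39.4 CPM at 6 months, and none of the 10 genes passed the edgeR adjusted threshold.

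Summed markers of oligodendrocytes, microglia and astrocytes were higher in both 6-month mice than in both 3-month mice in the same nuclei, although no single glial marker passed the edgeR adjusted threshold. The summed oligodendrocyte markers were at 158, 123, 305 and 265 CPM in layer 4 nuclei and at 202, 214, 348 and 414 CPM in other excitatory nuclei, with Mbp the most abundant at a mean of 103 CPM in layer 4. All 7 measured oligodendrocyte markers had a log2 difference above 0, 6 of them with an unadjusted p under 0.05 (median 1.30), and all 6 microglial markers did (median 0.98), where the median over the 13103 genes was 0.0016 and 6585 were above 0. The microglial sum was 70.4, 96.1, 162 and 149 CPM, led by P2ry12, the astrocyte sum 51.5, 49.6, 83.3 and 67.3 CPM, led by Slc4a4, the oligodendrocyte precursor sum 102, 66.4, 92.5 and 90.3 CPM, led by Lhfpl3, and the endothelial sum 1.22, 2.77, 2.93 and 2.41 CPM. The inhibitory sum was 35.8, 43.5, 110 and 73.2 CPM, led by Erbb4, with Gad1 and Gad2 at 0 by the rule.

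Members with at least 2 of 9 markers of other cell types were 3.24, 1.82, 9.81 and 6.76% of the layer 4 nuclei, more in both 6-month mice. Without these and the deepest 5% of nuclei, the log2 difference of Neat1 was 0.75, of Apoe 1.01, of Zbtb20 0.73, of Zfpm2 1.23, of Lama4 1.89, of Zrsr1 −1.57 and of Sorcs3 −1.05. In layer 4 nuclei with no UMI of a set of oligodendrocyte transcripts, Mbp, Mog and Mag among them, a selection added after the values had been seen, Neat1 was at 5.36, 3.53, 4.73 and 18.9 CPM and too low to be tested, and the differences were 1.26 for Apoe, 0.86 for Zbtb20, 1.74 for Zfpm2, 2.06 for Lama4, −2.26 for Zrsr1, −1.70 for Igsf3 and −1.44 for Sorcs3. Under the first selection, which also left out the deepest nuclei, the differences of Neat1, Zbtb20 and Apoe were smaller than in all members. The part of glial RNA in the age differences was not tested.

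Layer markers were also read by age. Zfpm2 averaged 1126 CPM in Syt6 nuclei and 374 CPM in other excitatory nuclei, against 56.8 CPM in layer 4 nuclei. All 4 layer 6 corticothalamic markers (3 with an unadjusted p under 0.05, median 0.61) and all 5 layer 5 intratelencephalic markers (2, median 0.48) had a difference above 0, as did 50.3% of all genes. Deptor, one of the 5, had a difference of −0.11 when at least 2 of the 3 gate markers were required. Among the layer 6 markers, Foxp2 had a difference of 0.92, Tle4 one of 0.85 and Hs3st4 one of 0.37, and their part in the value of Zfpm2 was not tested. The summed level of the layer 6 markers, led by Hs3st4, was 594, 587, 761 and 802 CPM, with Syt6 at 0 by the rule, and that of the layer 5 markers, led by Il1rapl2, was 573, 743, 721 and 829 CPM. The layer 2/3 sum, led by Cux2, was 515, 449, 488 and 446 CPM. It includes Otof, Ccbe1, Stard8, Glis3 and Nectin3, exclusion genes whose detection the rule limited. The share of members with Rspo1 was lower at 6 months, as given above. Tested apart, in subsets also chosen after the values had been seen, edgeR's quasi-likelihood test called 0 genes in members with Rspo1 (349 higher and 259 lower at an unadjusted p under 0.05, of 9622) and 0 in members with Whrn and no Rspo1 (534 and 338, of 12190).

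In the pathway lists, 0 members passed the edgeR adjusted threshold in any list. Over all 13103 genes, 50.3% had a difference above 0, 4.49% were higher and 2.77% lower at an unadjusted p under 0.05, and the median was 0.0016. Of 20 activity genes, 17 had a difference above 0 and 5 an unadjusted p under 0.05 (median 0.43), with Homer1 at 441, 596, 684 and 745 CPM (0.47 (SE 0.16), edgeR adjusted p = 0.557), Junb at 26.9, 35.2, 54.9 and 47.2 CPM (0.72 (SE 0.21), edgeR adjusted p = 0.399) and Npas4 at 17.8, 18.5, 28.1 and 28.9 CPM (0.66 (SE 0.22)). Arc (-0.32 (SE 0.29)) and Nr4a1 (-0.15 (SE 0.21)), of the same list, had negative differences. Of 21 cholesterol synthesis genes, 17 were above 0 and 1 had an unadjusted p under 0.05 (median 0.24), which was Cyp51 at 23.3, 26.6, 40.1 and 33.0 CPM. Of 9 genes of the integrated stress response, 8 were above 0 and 2 had an unadjusted p under 0.05 (median 0.24). Of 10 pyroptosis and complement genes, 8 were above 0 and 5 had an unadjusted p under 0.05 (median 1.01), namely C1qa, C1qb, C1qc, C4b and Casp1, all under 11 CPM and known from microglia or astrocytes.

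Redox genes of layer 4 nuclei were counted next. Of 9 genes of glutathione synthesis and cystine supply, 3 were above 0 and none had an unadjusted p under 0.05 (median −0.22). Gclc had a log2 difference of -0.37 (SE 0.21) with an edgeR adjusted p of 0.778, and Gclm one of -0.39 (SE 0.23). Of 19 antioxidant genes, 10 were above 0 (median 0.058), and of 10 genes of the Nrf2 group, 5 were above 0 (median 0.0041), none with an unadjusted p under 0.05. Of 11 iron and ferroptosis genes, 7 were above 0 (median 0.012), and 1 had an unadjusted p under 0.05, Trf, the transferrin gene that oligodendrocytes express, at 13.2, 11.9, 31.5 and 30.0 CPM (1.30 (SE 0.23), edgeR adjusted p = 0.213). Of 10 genes of the p53 response, 4 were above 0 and none had an unadjusted p under 0.05 (median −0.075). Of 15 chaperones, 10 were above 0, with 1 higher at an unadjusted p under 0.05 (median 0.12), of 24 oxidative phosphorylation genes, 16, also with 1 (median 0.019), and of 5 interferon and MHC class I genes, 3, with 0 (median 0.28).

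Genes of excitability and wiring were counted in the same way. Of 9 AMPA and NMDA receptor subunits, 3 were above 0 and none had an unadjusted p under 0.05 (median −0.18), and of 11 GABA-A subunits, 7 were above 0 and 2 were higher at that p (median 0.12). Of 26 potassium channel genes, 12 were above 0 and 3 had an unadjusted p under 0.05 (median −0.034), among them Kcnd3, the Kv4.3 channel, at 289.7, 336, 143 and 224 CPM (-0.77 (SE 0.21), edgeR adjusted p = 0.366). Of 19 sodium and calcium channel genes, 4 were above 0 and 15 below (median −0.082), with 1 in each direction at an unadjusted p under 0.05. Of 22 synaptic adhesion genes, 9 were above 0, with 1 higher and 2 lower at an unadjusted p under 0.05 (median −0.023), and of 28 guidance genes, 13 were above 0, with 1 higher and 3 lower (median −0.0099). Of 18 cadherins, 12 were above 0, with 1 in each direction (median 0.12). Of 14 genes of the Wnt pathway, 9 were above 0, with 1 in each direction (median 0.028). The lower one was the gate gene Rspo1, whose counts the rule used to choose the nuclei, so its p is no test of the pathway. Of 21 transcription factors, 14 were above 0, with 4 higher and 0 lower (median 0.073), namely Rora, Bcl11b, Etv1 and Foxp2. The 21 include the gate gene Rorb, whose counts the rule used. Of 7 CaM kinase genes, 4 were above 0, with 0 higher and 1 lower (median 0.0096). Camk2n1, an inhibitor of CaM kinase II, was at 162, 174, 114 and 112 CPM, with both 6-month values below both 3-month values (-0.57 (SE 0.16), edgeR adjusted p = 0.366).

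The age difference in layer 4 was compared with that in layer 2/3 nuclei of the same mice by an interaction term, with the mouse as a block. Of 14284 genes tested, edgeR's quasi-likelihood test called 4 (0.028%) with a lower age difference in layer 4 and 0 (0.0%) with a higher one. At an unadjusted p under 0.05, 513 (3.59%) were lower and 384 (2.69%) higher. Sorcs3 was at 224, 302, 96.3 and 137 CPM in layer 4 and at 392, 648, 446 and 577 CPM in layer 2/3, and the age differences differed by −1.22 (SE 0.14, edgeR adjusted p = 0.00545). Its level was lower in both 6-month mice in layer 4, and the ages overlapped in layer 2/3. Shisa6, an auxiliary protein of AMPA receptors (chromosome 11, 66211725 to 66525964), was at 80.5, 97.7, 39.8 and 58.7 CPM in layer 4 and at 56.9, 58.7, 63.9 and 76.6 CPM in layer 2/3, a difference of −1.18 (SE 0.16, edgeR adjusted p = 0.0203). Kitl, the ligand of the receptor Kit (chromosome 10, 100015630 to 100100416), was at 49.3, 56.2, 34.7 and 28.1 CPM and 67.3, 78.9, 106 and 77.7 CPM, a difference of −1.11 (SE 0.16, edgeR adjusted p = 0.0203). For Shisa6, the ages did not overlap in either class and lay in opposite directions, and for Kitl the ages overlapped in layer 2/3.

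The fourth gene was the long non-coding RNA Gm32647 (chromosome 7, 94042691 to 94709171), at 61.6, 16.6, 16.9 and 17.4 CPM in layer 4 and 342, 182, 389 and 425 CPM in layer 2/3, a difference of −1.75 (SE 0.25, edgeR adjusted p = 0.0203). Its layer 4 levels overlapped between ages, since only 3M-1 stood apart. The edgeR calls rested on 3M-1 for all 4 genes, since without it the adjusted p-values were 0.053 for Sorcs3, 0.054 for Shisa6, 0.181 for Kitl and 0.29 for Gm32647, with 1 gene called in each direction. Their differences without 3M-1 were −1.08, −1.30, −1.09 and −1.15, so that of Gm32647 was the one that shrank by more than 1.5 times. Without 3M-2, 20 were called lower and 0 higher, without 6M-1, 6 and 8, and without 6M-2, 107 and 39. DESeq2 called 2 of the 4, Sorcs3 and Gm32647. Kitl was also not called without 6M-1 (edgeR adjusted p = 0.0624).

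The same differences were read in each subset of the gate, chosen after the values had been seen. Shisa6 averaged 113 CPM in members with Rspo1 and 49.6 CPM in members with Whrn and no Rspo1, and the share of members with Rspo1 was lower at 6 months. With members with Rspo1 alone set against layer 2/3, the difference was −1.40 for Shisa6 (edgeR adjusted p = 0.0222), −0.91 for Sorcs3 (0.342), −0.90 for Kitl (0.594) and −1.50 for Gm32647 (0.0286). With members with Whrn and no Rspo1 alone, it was −0.86 for Shisa6 (edgeR adjusted p = 0.101), −1.34 for Sorcs3 (0.000143), −1.20 for Kitl (0.0233) and −1.93 for Gm32647 (0.0157). All 4 differences were below 0 in both subsets, and the subsets had fewer UMIs than the whole gate.

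**Figure D5:**
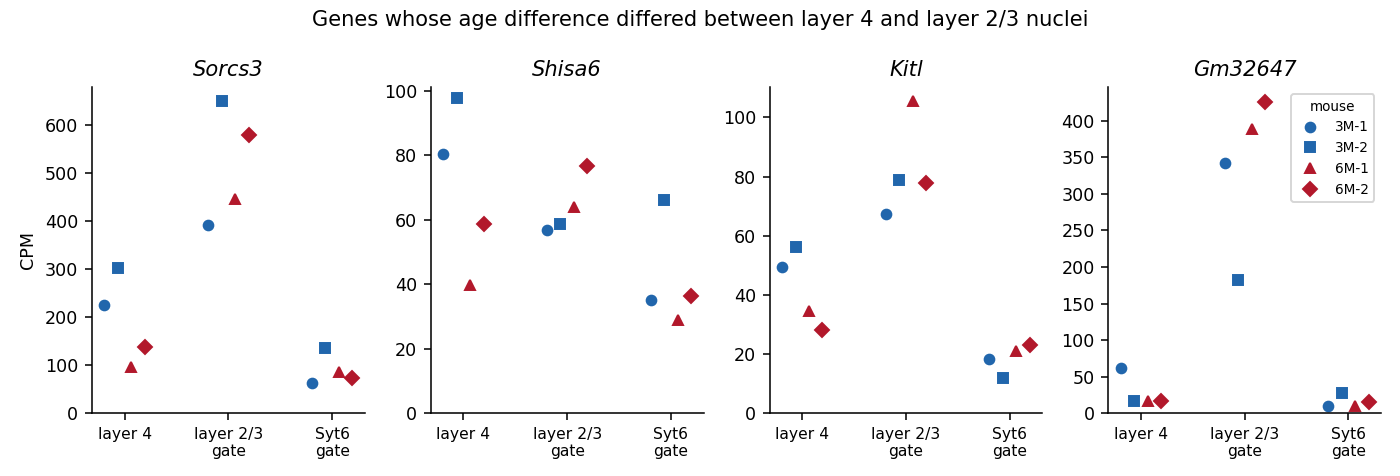
Levels (CPM, linear axes, 1 point per mouse) of Sorcs3, Shisa6, Kitl and Gm32647 at 3 and 6 months in layer 4, layer 2/3 and Syt6 nuclei. In layer 4, Sorcs3 was at 224 and 302 CPM at 3 months and at 96.3 and 137 CPM at 6 months, and in layer 2/3 the ages overlapped.

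Against Syt6 nuclei, 0 of 13420 genes were called in either direction by edgeR (0.0%), with 384 (2.86%) higher and 395 (2.94%) lower at an unadjusted p under 0.05, and DESeq2 called 0. For the same 4 genes the differences were −0.95 for Sorcs3 (edgeR adjusted p = 0.477), −1.26 for Kitl (0.416), −0.31 for Shisa6 (0.943) and −0.70 for Gm32647 (0.979). The layer 2/3 and Syt6 age tests on their own called 0 genes by edgeR, with 535 (3.72%) higher and 247 (1.72%) lower of 14378, and 280 (2.43%) higher and 203 (1.76%) lower of 11533, at an unadjusted p under 0.05. DESeq2 called 4 higher and 1 lower in layer 2/3, and 0 in Syt6 nuclei. Zrsr1 had a log2 age difference of −1.55 in layer 4, −1.65 in layer 2/3 and −1.97 in Syt6 nuclei, and Neat1 one of 1.89, 0.80 and 1.55.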

How the data were processed

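The deposited values were UMI counts per gene and nucleus in 1 matrix per mouse (32285 gene rows), which the authors made with Cell Ranger 7.0.0 (per the file headers) on mm10 (per the submitters' processing notes). The annotation and the treatment of introns and strand are not given in the sources used here. Nuclei were kept and gated as the report states. The members and the 37 gene lists were chosen with earlier results of these data known.

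Counts of members were summed per mouse. Ages were compared with edgeR 4.0.16 (R 4.3.3; filterByExpr, TMM, quasi-likelihood F test, Benjamini-Hochberg adjustment over all genes tested), and classes by an age by class term with mouse as a block. DESeq2 1.42.0, no filter on low counts, stricter gates, removal of possible doublets, thinning to 5000 UMIs and leaving out each mouse were the alternatives. Possible doublets were nuclei with 2 or more of 9 markers of other cell types or among the deepest 5%, and no doublet caller was run. Ratios between classes used CPM with a prior count of 0.5. The shares were computed with Python 3.11.15 and scipy 1.17.1. Each library came from 1 mouse, and with 2 mice per age the precision is set by their number.

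The replicate number served as a batch number that paired the libraries across ages. Whether such pairs shared a batch could not be checked here. The correlation of replicate differences was −0.032 in layer 4, −0.041 in layer 2/3 and −0.11 in Syt6 nuclei. On simulated counts of the layer 4 age comparison (13103 genes), 52% of 100 genes changed by a log2 of 1 and 90% of 100 changed by 2 were recovered, with 20 false calls. Those counts were drawn with dispersions fitted to the data, so these shares are not the recovery in the data. There, Lama4 had a difference of 1.94 and did not pass (edgeR adjusted p = 0.213). Genes named were those of smallest p in the age test (5 per direction, since none passed), genes called in the interaction tests, the 12 highest and 8 lowest by ratio to other excitatory nuclei, gate genes and markers, and the 3 most abundant of each list, of which some are not reported here. Coordinates are from GENCODE M21 (GRCm38), in which 32235 of 32285 gene IDs and 105 of 105 named genes were found.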

Additional observations from a re-analysis of the deposited data

Results flagged for a closer look

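The age differences of 4 genes differed between layer 4 and layer 2/3 nuclei of the same mice by edgeR's interaction test. The difference of the log2 age differences was −1.22 for Sorcs3, −1.18 for Shisa6, −1.11 for Kitl and −1.75 for Gm32647, each with the levels in every mouse given in the report. The adjusted p-values over the alternatives, of which 1 used DESeq2 and the others edgeR, ran from 8.56e-15 to 0.342 for Sorcs3, from 4.42e-08 to 0.407 for Shisa6, from 3.95e-06 to 0.650 for Kitl and from 8.85e-16 to 0.290 for Gm32647, and the sign was negative in every alternative run. For Gm32647 the layer 4 side rested on 3M-1, without which its age difference in layer 4 was 0.063.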

How the results depend on the processing

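The libraries were paired by replicate number. With the pairing as a replicate block, edgeR called 0 genes in layer 4 (528 higher and 317 lower at an unadjusted p under 0.05), 0 in layer 2/3 (581 and 225) and 0 in Syt6 nuclei (243 and 153). The interaction tests already held the mouse as a block and were not run with this one. In Syt6 nuclei, crossing the pairs gave 0 calls as well (335 and 224).

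DESeq2 called 11 genes higher and 3 lower with age in layer 4 (1525 genes had no adjusted p), 4 and 1 in layer 2/3, and 2 with a lower age difference in layer 4 than in layer 2/3. With no filter on low counts, 163 were called higher and 61 lower in layer 4, 70 and 19 in layer 2/3, 32 and 14 in Syt6 nuclei, 40 and 65 in the interaction with layer 2/3 and 29 and 30 in that with Syt6 nuclei. With at least 10 Rorb UMIs, 2 were called higher in layer 4. Leaving out 1 mouse at a time gave 0 to 113 higher and 0 to 63 lower calls in layer 4, 0 to 359 and 0 to 124 in layer 2/3, 0 to 222 and 0 to 87 in Syt6 nuclei, 0 to 39 and 1 to 107 in the interaction with layer 2/3, and 7 to 11 and 3 to 17 in that with Syt6 nuclei. The largest counts came without 6M-2 in layer 4 and without 3M-2 in layer 2/3 and Syt6 nuclei, and the causes were not tested.

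The interaction with layer 2/3 was also run on subsets chosen after seeing the data, with 2 higher and 3 lower in members with Rspo1, 1 and 9 in members with Whrn and no Rspo1, and 0 and 5 in nuclei with no oligodendrocyte transcript. Against Syt6 nuclei in place of all other excitatory nuclei, 280 genes were at least 2-fold higher and 267 lower. The difference in median depth between ages was −115.5 UMIs and ran from −1458 to 1227 without single mice. The sign turned for Gm32647 with age in layer 4, whose difference ran from −1.86 to 0.063 without single mice (0.063 without 3M-1), and for Deptor with at least 2 markers required (−0.11). Age differences were followed through the alternatives for 19 genes, and apart from these 2 the sign held, in 241 combinations of gene and alternative on the same side of the threshold and in 39 that passed it. The cause was not tested for these.

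The filter on low counts left 13103 genes to test in layer 4, and the sums per mouse came from 247 to 367 nuclei. There were 2 mice per age, and the number of calls changed with the mouse left out. No wild-type library was analysed here, and age was compared within the knockout.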
